A study of Mus musculus with 14 samples.

Results

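The genes described here are 35 genes of the cell's response to low oxygen, 15 enzymes of glycolysis and 20 other targets of the hypoxia-inducible factors (HIF). They were chosen by name, and their probes were found through the RefSeq accession that the array files give for each spot. All 35 had a probe, 59 probes together, out of 21356 gene symbols on the array. Their mRNAs were read in bone marrow-derived macrophages of the mouse, which grow out of marrow precursors in the presence of the growth factor M-CSF, on 14 one-colour Agilent arrays. A gene's level is given throughout as log2 of its brightest probe's signal over the 75th percentile of its array, so that a difference of 1 is a change by a factor of 2. Differences are between levels of 1 gene on this scale, and levels of different genes are not compared with each other.

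All donor animals were female C57BL/6 mice of 8 weeks and carried LysM-Double-Cre. LysM drives Cre recombinase in myeloid cells. Transgenic cells came from TFEB transgene+ mice and wild-type cells from TFEB transgene- mice, which carry the Cre as well. TFEB is a transcription factor that switches on genes of lysosomes and autophagy. For 24 h the cells were kept in DMEM only (control) or in DMEM to which medium conditioned by EO771 mouse mammary tumour cells and tumour lysate had been added (tumour). The 4 groups are 3 wild-type control replicates on 4 arrays, 3 wild-type tumour replicates on 4 arrays, 3 transgenic control replicates on 3 arrays and 2 transgenic tumour replicates on 3 arrays. Transgenic tumour replicate 1 is not analysed here, and replicate 3 was read on a repeat array in 3 of the groups. The labels call the replicates biological, and the sources used here do not give whether each was 1 animal or a pool.

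HIF is a pair of an alpha subunit, which cells destroy while oxygen is plentiful, and the stable partner ARNT. When prolyl hydroxylases lack oxygen or are otherwise inhibited, the alpha subunit survives, binds short motifs (ACGTG or GCGTG) in its target genes and raises their transcription. The targets bring in glucose, speed its breakdown to lactate, export the lactate and hold back mitochondrial respiration. Macrophages use the same genes when inflammatory signals activate them, also with oxygen present.

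The sequences just before the gene starts show how the motif is placed in members on which the results turn. RefSeq (GRCm38.p6) gave promoter windows for 32 of the 35 members. Bnip3l, Ndrg1 and Ndufa4l2 had no entry. The 250 bases before the start, written 5′ to 3′ on the gene's strand, are shown for Bnip3 at chr7:138909507-138909756 (minus strand), the member whose response differed between the genotypes, for Ankrd37 at chr8:45999851-46000100 (minus strand) and Slc16a3 at chr11:120948817-120949066 (plus strand), which rose in both genotypes, for the enzyme gene Pgk1 at chrX:106186850-106187099 (plus strand), and for Aldoc at chr11:78322823-78323072 (plus strand) and Eno2 at chr6:124769674-124769923 (minus strand), enzyme genes that fell in wild-type cells. Capitals mark ACGTG and GCGTG on either strand.
Bnip3: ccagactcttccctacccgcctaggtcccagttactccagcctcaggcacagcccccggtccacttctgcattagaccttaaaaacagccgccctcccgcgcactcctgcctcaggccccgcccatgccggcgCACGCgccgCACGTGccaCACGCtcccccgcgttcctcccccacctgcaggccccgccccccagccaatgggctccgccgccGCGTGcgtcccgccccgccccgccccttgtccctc
Ankrd37: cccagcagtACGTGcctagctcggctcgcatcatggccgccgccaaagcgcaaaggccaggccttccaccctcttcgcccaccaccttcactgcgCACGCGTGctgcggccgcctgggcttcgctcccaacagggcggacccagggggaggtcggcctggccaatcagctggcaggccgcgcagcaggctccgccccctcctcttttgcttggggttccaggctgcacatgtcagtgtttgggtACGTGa
Slc16a3: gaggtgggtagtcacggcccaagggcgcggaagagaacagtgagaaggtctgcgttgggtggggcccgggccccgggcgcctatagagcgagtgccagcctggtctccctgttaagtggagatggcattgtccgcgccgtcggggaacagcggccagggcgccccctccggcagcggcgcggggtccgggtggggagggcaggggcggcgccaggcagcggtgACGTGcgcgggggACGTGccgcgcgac
Pgk1: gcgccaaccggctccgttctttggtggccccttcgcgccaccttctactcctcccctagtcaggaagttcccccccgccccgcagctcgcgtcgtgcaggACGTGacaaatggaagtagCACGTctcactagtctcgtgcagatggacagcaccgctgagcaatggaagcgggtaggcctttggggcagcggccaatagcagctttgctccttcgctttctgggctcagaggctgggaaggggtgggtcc
Aldoc: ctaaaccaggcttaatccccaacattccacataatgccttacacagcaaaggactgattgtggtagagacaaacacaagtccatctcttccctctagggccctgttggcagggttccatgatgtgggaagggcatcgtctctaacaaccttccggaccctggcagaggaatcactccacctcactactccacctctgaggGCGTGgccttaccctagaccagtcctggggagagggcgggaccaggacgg
Eno2: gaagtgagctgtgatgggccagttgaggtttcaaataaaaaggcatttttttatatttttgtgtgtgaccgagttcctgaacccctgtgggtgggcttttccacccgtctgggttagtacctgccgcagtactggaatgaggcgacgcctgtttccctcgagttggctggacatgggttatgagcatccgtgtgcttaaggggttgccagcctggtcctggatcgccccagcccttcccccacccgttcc
The motif stood at 5 positions in Bnip3, 4 in Ankrd37, 2 in Slc16a3, 2 in Pgk1, 1 in Aldoc and 0 in Eno2. These genes do not stand for all members. In the same 250 bases 8 of the 32 members had 0, among them Aldoa, Gpi1, Hk1, Tpi1 and Pkm, which rose in wild-type cells. Ldha had 5 and did not pass there by its brightest probe. Overlapping matches were counted separately. Over windows from 250 bases before the start to 50 after it, 77.6% of the members' 49 windows held at least 1 such motif, against 43.8% of 32851 windows of all genes. The share was 73.9% of 23 windows for the glycolytic enzymes and 80.8% of 26 for the other targets. The motif CACGTG, which TFEB binds and which holds ACGTG on both strands, was in 8.16% of the members' windows and in 7.15% of all, and Bnip3 and Ldha were the members with it before the start of the window examined. A match is a run of letters, not evidence that a factor was bound.

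Of the 35 members, 28 were above background on all 14 arrays and 4 on some of them: Ak4 and Ankrd37 on 13, the pyruvate dehydrogenase kinase gene Pdk1 on 7 and Adm on 6. These 32 were tested. Adm and Pdk1 entered the test through the wild-type tumour group, where they were above background on all arrays. Ndufa4l2, Car12 and Mxi1 were not well above background on any array. The probes showed macrophages: 7 of 8 macrophage markers were above background on all arrays of every group, and the Lyz2 probe was below it on all transgenic arrays. All 8 epithelial markers and all 4 erythroid markers on the array were below background on every array. Fibroblast markers (6 genes) had a summed log2 level of 0.49 to 4.50 in wild-type control, 5.07 to 5.45 in wild-type tumour, −0.08 to 3.31 in transgenic control and 2.96 to 3.15 in transgenic tumour cells. The wild-type ranges lay apart and the transgenic ones overlapped. Of the 5 tested, 2 rose and 0 fell in wild-type cells at an adjusted p under 0.05, with a median of −0.11. That is 40% and 0%, beside 23.2% and 16.8% of all genes. In transgenic cells 1 rose and 0 fell (20% and 0%, beside 15.2% and 10.2%), with a median of 0.33. Lum led the fibroblast markers, at least 36.0-fold higher with tumour material in wild-type cells (adjusted p = 6.13e-12) and at least 2.75-fold higher in transgenic ones (adjusted p = 9.06e-07). Its control means were dim, at −4.78 in wild-type and −4.71 in transgenic cells. Like Adm and Pdk1, Lum entered the test through the wild-type tumour group, where it is high. Its wild-type call and its place among the 2 that rose there therefore support nothing. Of the 2 fibroblast markers above background on all arrays, 1 rose in wild-type cells and 0 in transgenic ones, and 0 fell in either. Dividing-cell markers summed to 2.49 to 2.53, 1.61 to 1.70, 3.81 to 5.05 and 1.75 to 1.98 in the same order, and neutrophil-lineage markers to 7.87 to 7.96, 5.75 to 6.52, 7.48 to 9.17 and 5.01 to 5.16. The part of such cells, or of RNA carried in by the lysate, in the values below was not tested. In cultures measured as a whole, fewer cells of a type and less RNA per cell cannot be told apart. The transgenic control arrays were the least alike: they correlated with each other at 0.957 to 0.981, and arrays within each other group at 0.979 or more. The level of Tfeb was 0.99, 0.82 and 0.89 in wild-type control, 1.35, 1.36 and 0.86 in transgenic control, −0.71, −0.69 and −0.60 in wild-type tumour and 0.01 and −0.12 in transgenic tumour cells. The transgene's effect on it was 0.31 in control medium (SE 0.13, adjusted p = 0.167) and 0.69 with tumour material (SE 0.16, adjusted p = 0.0267), and the sources used here do not give whether its probe reads the transgene. Tfeb in transgenic control replicate 3 lay within the wild-type control range of 0.82 to 0.99, so the level of this gene does not set that library apart from wild-type ones, and it is called transgenic by its label. Without it, 11 members rose and 1 fell in transgenic cells (16 and 2 with it), 9 were lower and 1 higher for the transgene with tumour material (7 and 1), and 6 were lower and 0 higher in control medium (4 and 1). Calls over all genes, in either direction, were 2850, 944 and 1768 in these comparisons (4016, 725 and 1417 with it).

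In wild-type macrophages, tumour material raised most of the measured members. Of the 32, 22 rose and 4 fell at an adjusted p under 0.05, where 40.1% of all 15834 genes passed, 23.2% upwards and 16.8% downwards. Among the 28 members above background on all arrays, 19 rose and 4 fell. Here and below, adjusted p values for single genes are from limma's moderated test in 1 fit to all 14 arrays with Benjamini-Hochberg adjustment over all genes. Repeat arrays of a replicate were estimated to correlate at 0.0615 in that fit and so count almost as separate replicates; calls that end when they are averaged, in a fit without a slide term, are given with that fit's adjusted p. Of the 15 glycolytic enzymes, 10 rose and 2 fell, with a median log2 difference of 0.54. Of the 17 other targets tested, 12 rose and 2 fell, with a median of 1.09. The median over the 13 others that were above background on all arrays was 0.68, and over all genes it was 0.05. These medians are descriptions without a test. Within slide 1 and within slide 2, all 26 called members kept their direction. The calls came from these same arrays, so this adds no support to them. On slide 2 each wild-type group has 1 array, a repeat array of replicate 3.

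**Figure D1:**
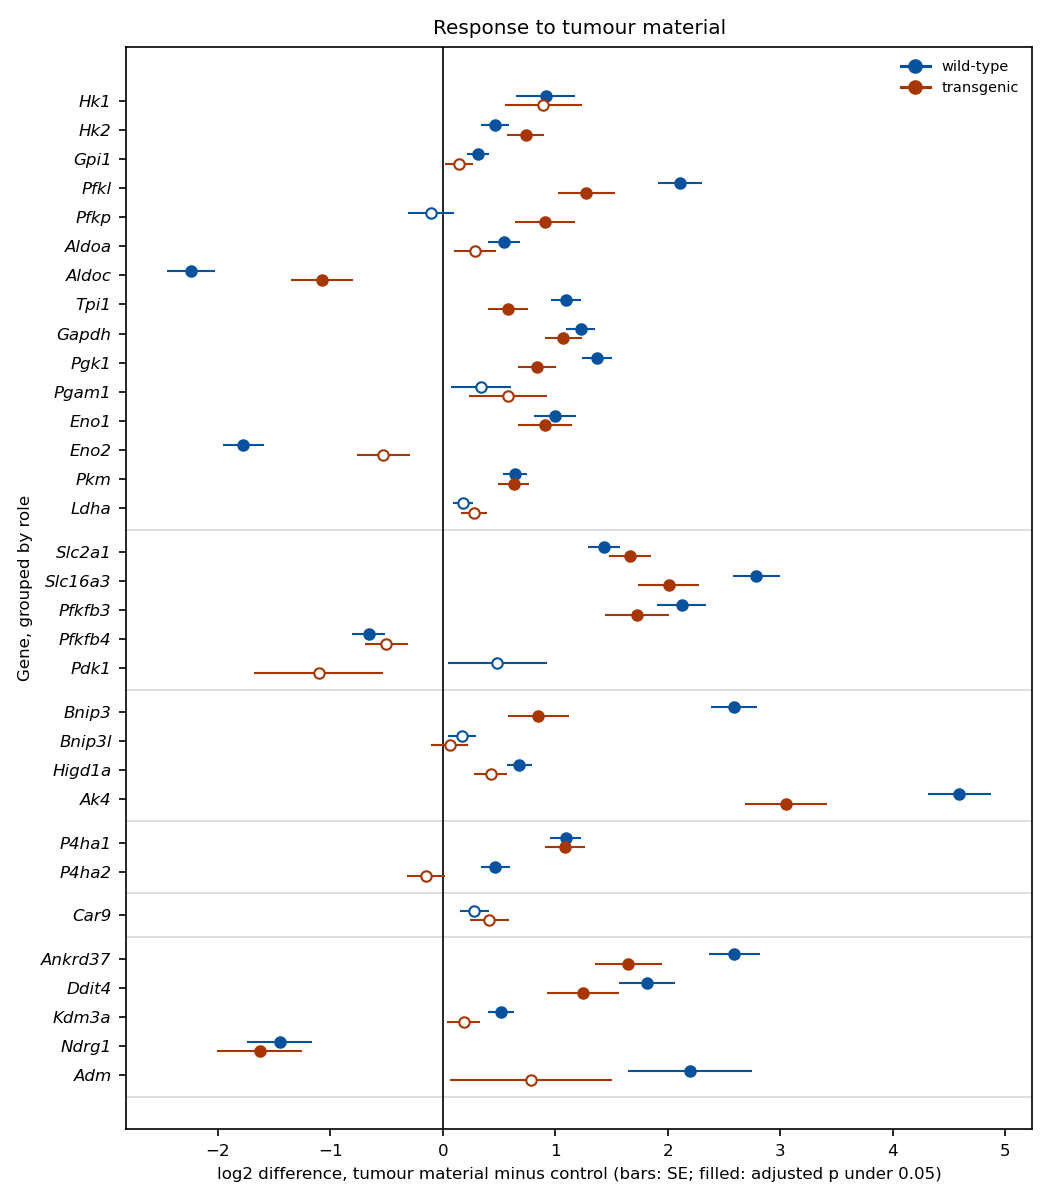
Log2 difference between tumour material and control for the 32 tested members, grouped by role, in wild-type (blue) and transgenic (orange-brown) macrophages; bars are standard errors and filled points have an adjusted p under 0.05. Ak4 lies farthest to the right in both genotypes (4.59 and 3.05), while Aldoc, Eno2, Ndrg1 and Pfkfb4 lie left of 0 in both.

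Glucose enters the cell through Slc2a1 (GLUT1) and the lactate made from it leaves through Slc16a3 (MCT4). Slc2a1 stood at 4.32, 4.16 and 4.32 in wild-type control, 5.74, 5.31 and 5.91 in wild-type tumour, 2.98, 3.44 and 3.69 in transgenic control and 5.28 and 5.21 in transgenic tumour cells. It rose with tumour material by 1.43 (SE 0.14, adjusted p = 1.13e-05) in wild-type and by 1.67 (SE 0.19, adjusted p = 6.06e-05) in transgenic cells. Neither genotype's groups overlapped, and the transgenic control values lay below all wild-type control values. Slc16a3 stood at 4.66, 4.62 and 4.94 in wild-type control, 7.54, 7.54 and 7.60 in wild-type tumour, 4.74, 3.94 and 3.70 in transgenic control and 6.37 and 5.92 in transgenic tumour cells. Its rise was 2.79 (SE 0.21, adjusted p = 1.14e-06) in wild-type and 2.01 (SE 0.27, adjusted p = 0.000228) in transgenic cells, and its other probe gave 2.74 and 1.75. The wild-type tumour values were the highest, and both transgenic tumour values lay between them and the controls.

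The first committed step of glycolysis is set by phosphofructokinase, of which Pfkl is the liver-type and Pfkp the platelet-type subunit. Pfkl stood at 2.16, 1.93 and 2.14 in wild-type control, 4.23, 4.15 and 4.21 in wild-type tumour, 2.42, 1.53 and 1.53 in transgenic control and 3.33 and 2.87 in transgenic tumour cells. It rose by 2.11 (SE 0.19, adjusted p = 6.02e-06) in wild-type and by 1.27 (SE 0.25, adjusted p = 0.00321) in transgenic cells, and the call in transgenic cells is lost without transgenic control replicate 3 (adjusted p = 0.0587). Pfkp stood at 1.21, 1.20 and 0.94 in wild-type control, 0.99, 1.08 and 0.90 in wild-type tumour, 0.21, 0.69 and 0.92 in transgenic control and 1.24 and 1.51 in transgenic tumour cells. The wild-type groups of Pfkp overlapped, with a difference of −0.11 (SE 0.20, adjusted p = 0.714), whereas both transgenic tumour values lay above all other values. That rise of 0.91 (SE 0.27, adjusted p = 0.0263) was read by 1 probe only: the other gave 0.02. It is lost without wild-type control replicate 3, wild-type tumour replicate 3 or transgenic tumour replicate 3 (adjusted p = 0.0559, 0.0753 and 0.123) and with normexp, with no filter or without the repeat arrays (adjusted p = 0.0568, 0.0644 and 0.337), and the test of the difference between the genotypes' responses did not pass (1.01 (SE 0.33, adjusted p = 0.193)).

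Pfkfb3 and Pfkfb4 make and break down the sugar phosphate that activates phosphofructokinase, Pfkfb3 mostly making it. Pfkfb3 stood at 1.95, 2.08 and 1.75 in wild-type control, 4.17, 4.14 and 3.85 in wild-type tumour, 3.03, 2.42 and 1.94 in transgenic control and 3.54 and 4.05 in transgenic tumour cells. It rose by 2.12 (SE 0.22, adjusted p = 1.49e-05) in wild-type and by 1.73 (SE 0.29, adjusted p = 0.001) in transgenic cells, and the tumour groups overlapped. Pfkfb4 stood at 4.80, 5.12 and 4.90 in wild-type control, 4.35, 4.15 and 4.29 in wild-type tumour, 5.28, 4.70 and 4.69 in transgenic control and 4.25 and 4.35 in transgenic tumour cells. It went the other way, with a fall of 0.66 on the log2 scale in wild-type cells (SE 0.15, adjusted p = 0.00375) and a difference of −0.50 (SE 0.19, adjusted p = 0.0753) in transgenic ones. All control values of Pfkfb4 lay above all tumour values. Pdk1, the pyruvate dehydrogenase kinase gene, was near background, at 0.48 in the wild-type response (SE 0.44, adjusted p = 0.415). It was above background on 2 of 4 wild-type control and 4 of 4 wild-type tumour arrays. In transgenic cells it was so on 1 of 3 control and 0 of 3 tumour arrays. Its mean in transgenic tumour cells was at least 2.84-fold lower than in wild-type tumour cells. By limma's test the difference was −1.70 and did not pass (SE 0.57, adjusted p = 0.132). Pdk1 was tested only through the wild-type tumour group, where it is high, so this difference supports nothing. For all bounds of this kind, the mean of the bright group is divided by that of the dim one, taking per array the lowest signal above background or the dim probe's own signal if that is higher.

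Aldolases split the sugar, and their 2 members moved in opposite directions in wild-type cells. Aldoa, the ubiquitous form, stood at 10.51, 10.56 and 10.76 in wild-type control, 11.19, 11.12 and 11.22 in wild-type tumour, 10.69, 11.01 and 10.19 in transgenic control and 10.80 and 10.84 in transgenic tumour cells. It rose by 0.54 (SE 0.15, adjusted p = 0.0109) in wild-type cells, a call that is lost without wild-type tumour replicate 3 (adjusted p = 0.128) and at which quantile normalization gave 0.09 (adjusted p = 0.477). In transgenic cells Aldoa was at 0.29 (SE 0.19, adjusted p = 0.311) and the groups overlapped. Aldoc, the form known from brain, stood at 4.13, 4.03 and 4.25 in wild-type control, 1.90, 1.85 and 1.97 in wild-type tumour, 3.84, 3.07 and 2.71 in transgenic control and 2.18 and 1.91 in transgenic tumour cells. It fell by 2.24 on the log2 scale in wild-type cells (SE 0.21, adjusted p = 6.8e-06) and by 1.07 in transgenic ones (SE 0.27, adjusted p = 0.0134). The tumour groups of both genotypes overlapped, and every control value lay above every tumour value. The fall in transgenic cells is lost without transgenic tumour replicate 3 (adjusted p = 0.0968) or without the repeat arrays (adjusted p = 0.22).

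The 2 enolases also moved in opposite directions in wild-type cells. Eno1, the form found in most tissues, stood at 6.68, 6.74 and 6.77 in wild-type control, 7.73, 7.70 and 7.77 in wild-type tumour, 7.13, 6.15 and 6.24 in transgenic control and 7.22 and 7.44 in transgenic tumour cells. It rose by 1.0 (SE 0.18, adjusted p = 0.0011) in wild-type and 0.91 (SE 0.24, adjusted p = 0.0161) in transgenic cells. In the latter the groups did not overlap, though transgenic control replicate 1, at 7.13, came close to the lower tumour value, and the call is lost without transgenic control replicate 3 or transgenic tumour replicate 3 (adjusted p = 0.163 and 0.19). It is also lost with quantile normalization, the deposited matrix or normexp (adjusted p = 0.0581, 0.0596 and 0.0506). Eno2, the form typical of neurons, stood at 2.81, 3.16 and 3.18 in wild-type control, 1.30, 1.36 and 1.29 in wild-type tumour, 3.23, 4.06 and 4.20 in transgenic control and 3.50 and 3.45 in transgenic tumour cells. It fell by 1.77 on the log2 scale in wild-type cells (SE 0.18, adjusted p = 1.27e-05), while its difference in transgenic cells was −0.53 (SE 0.24, adjusted p = 0.126) and the transgenic groups overlapped. The test of the difference between these responses gave 1.24 (SE 0.30, adjusted p = 0.0607).

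**Figure D2:**
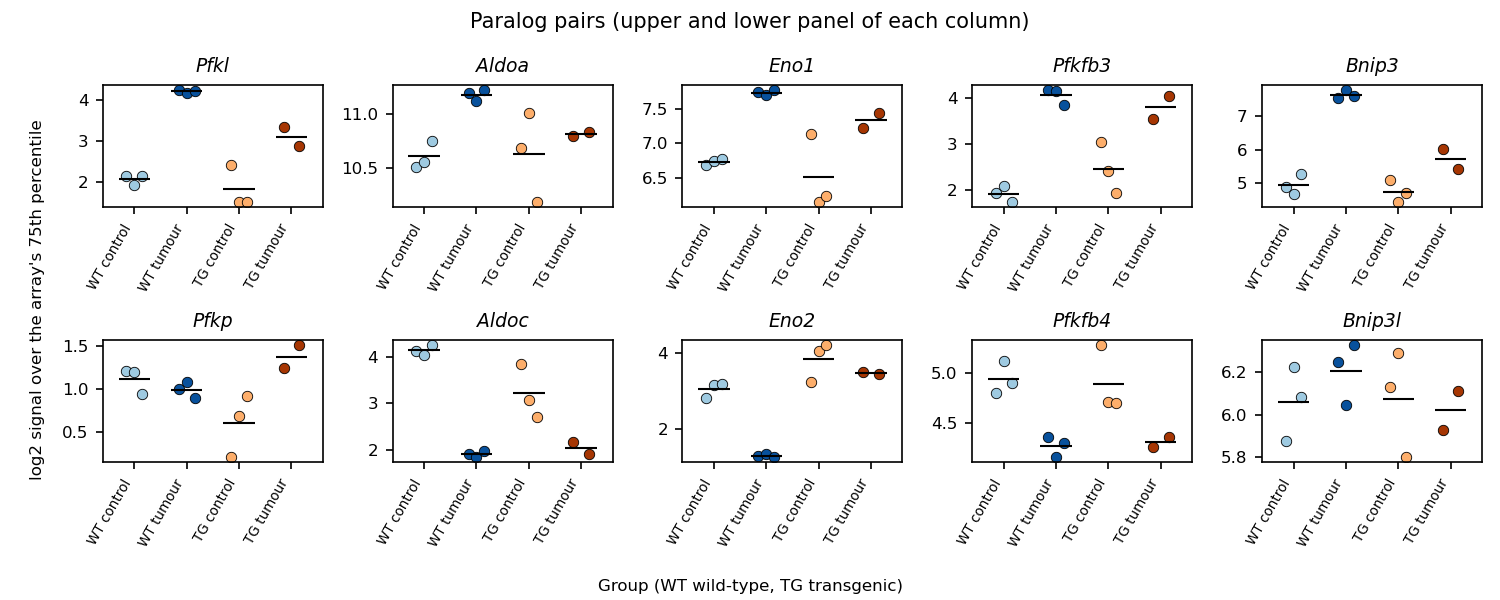
Level of both genes of 5 paralog pairs (upper and lower panel of a column) in each replicate, as log2 signal over the array's 75th percentile, by group; lines are group means and the vertical scales differ between panels. Wild-type tumour values of Aldoc (1.85 to 1.97) and Eno2 (1.29 to 1.36) lie below all wild-type control values, while those of Aldoa and Eno1 lie above them.

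Further down the pathway, the enzymes Gapdh and Pgk1 rose in both genotypes, and so did Tpi1 and Pkm, whose calls in transgenic cells depend on the scaling. Pgk1, the first enzyme of glycolysis to yield ATP, stood at 7.49, 7.65 and 7.63 in wild-type control, 9.07, 8.81 and 9.01 in wild-type tumour, 7.17, 7.20 and 7.35 in transgenic control and 8.27 and 8.03 in transgenic tumour cells. Its rise was 1.37 (SE 0.13, adjusted p = 7.39e-06) in wild-type and 0.84 (SE 0.17, adjusted p = 0.00361) in transgenic cells, with no overlap in either. Tpi1 rose by 1.10 and 0.58, Gapdh by 1.22 and 1.07 and Pkm by 0.64 and 0.63, wild-type first (adjusted p between 1.42e-05 and 0.0332 over these). In transgenic cells quantile normalization took Tpi1 to 0.40 (adjusted p = 0.162) and Pkm to 0.37 (adjusted p = 0.0784). The deposited matrix ended both calls too (adjusted p = 0.164 and 0.0826), as did normexp (adjusted p = 0.282 and 0.0647). The other probes of Gapdh gave 0.24 to 1.33 in wild-type cells. Hexokinases trap glucose in the cell: Hk2 rose by 0.46 (SE 0.12, adjusted p = 0.0111) and 0.74 (SE 0.16, adjusted p = 0.00594), and Hk1 rose by 0.91 (SE 0.26, adjusted p = 0.0157) in wild-type cells against 0.89 (SE 0.34, adjusted p = 0.0799) in transgenic ones. Gpi1 rose by 0.32 (SE 0.10, adjusted p = 0.0222) in wild-type cells and was at 0.14 (SE 0.13, adjusted p = 0.451) in transgenic ones. Quantile normalization took the wild-type value of Gpi1 to 0.10 (adjusted p = 0.439), and its call is also lost without wild-type control replicate 1, wild-type tumour replicate 1 or 3 or transgenic tumour replicate 3 (adjusted p = 0.0512, 0.0598, 0.199 and 0.0771). Pgam1 did not pass in either genotype (0.34 and 0.58). With repeat arrays averaged, Hk2 is lost in wild-type and transgenic cells (adjusted p = 0.0833 and 0.0849) and Gpi1 in wild-type ones (adjusted p = 0.09). In wild-type cells Hk1 is lost without wild-type control replicate 3 or wild-type tumour replicate 1 or 3 (adjusted p = 0.075, 0.0551 and 0.0785), and Hk2 without wild-type control replicate 3 or wild-type tumour replicate 3 (adjusted p = 0.0849 and 0.0626). In transgenic cells transgenic tumour replicate 3 decides Hk2 (adjusted p = 0.0753 without it), transgenic control replicate 3 or transgenic tumour replicate 3 decides Pkm (adjusted p = 0.052 and 0.0514), and Tpi1 is lost without wild-type control replicate 3, wild-type tumour replicate 1 or 3 or transgenic tumour replicate 2 or 3 (adjusted p = 0.0787, 0.0536, 0.1, 0.0865 and 0.0594).

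Ldha, the enzyme that turns pyruvate into lactate, did not pass by its brightest probe, at 0.18 (SE 0.09, adjusted p = 0.13) in wild-type and 0.28 (SE 0.11, adjusted p = 0.0983) in transgenic cells. Its other probes, above background on all 14 arrays too, gave 1.14 and 1.47 in wild-type and 0.36 and 0.29 in transgenic cells. The value for Ldha therefore depends on the probe. The cause was not tested, and no spot on any array was saturated.

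Among the targets outside glycolysis, the mitochondrial genes held the largest rise of all members. Ak4, an adenylate kinase of the mitochondrial matrix, stood at −0.67, −1.08 and −0.56 in wild-type control, 3.79, 3.87 and 3.91 in wild-type tumour, −2.58, −1.41 and −1.08 in transgenic control and 2.13 and 1.33 in transgenic tumour cells. It rose by 4.59 (SE 0.28, adjusted p = 2.55e-07) in wild-type and by 3.05 (SE 0.37, adjusted p = 0.000104) in transgenic cells. The lowest tumour value of Ak4, 1.33, lay far above the highest control value, −0.56. Bnip3, a receptor on the outer mitochondrial membrane that marks mitochondria for autophagy, stood at 4.90, 4.70 and 5.27 in wild-type control, 7.52, 7.76 and 7.58 in wild-type tumour, 5.09, 4.46 and 4.71 in transgenic control and 6.03 and 5.41 in transgenic tumour cells. Its rise was 2.59 (SE 0.20, adjusted p = 1.83e-06) in wild-type and 0.85 (SE 0.27, adjusted p = 0.036) in transgenic cells, and the other probe above background on all arrays gave 2.45 and 0.92. The remaining probe was above background on 4 of 14 arrays and is not used. Both transgenic tumour values lay above every control value and below every wild-type tumour value. The call in transgenic cells is lost with quantile normalization, the deposited matrix or no filter on dim probes (adjusted p = 0.0724, 0.0728 and 0.102), and without wild-type tumour replicate 2 or 3, transgenic control replicate 2 or 3 or transgenic tumour replicate 2 (adjusted p = 0.0515, 0.114, 0.0775, 0.207 and 0.113).

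Bnip3l, its paralog with the same role, stood at 5.87, 6.22 and 6.08 in wild-type control, 6.25, 6.05 and 6.33 in wild-type tumour, 6.13, 6.29 and 5.80 in transgenic control and 5.93 and 6.11 in transgenic tumour cells. All 4 groups overlapped, with 0.17 (SE 0.13, adjusted p = 0.318) in the wild-type response, and its other probes gave −0.61 to −0.05. Higd1a, a small protein of the respiratory chain, rose by 0.68 (SE 0.11, adjusted p = 0.000513) in wild-type cells and was at 0.43 (SE 0.15, adjusted p = 0.0536) in transgenic ones. P4ha1 and P4ha2 are the catalytic subunits of the enzyme that hydroxylates proline in collagen. P4ha1 stood at 0.82, 0.67 and 0.50 in wild-type control, 1.90, 1.72 and 1.63 in wild-type tumour, −0.18, 0.02 and 0.32 in transgenic control and 1.20 and 1.02 in transgenic tumour cells. It rose by 1.09 (SE 0.14, adjusted p = 6.95e-05) in wild-type and 1.09 (SE 0.18, adjusted p = 0.000973) in transgenic cells, with no overlap in either. P4ha2 rose by 0.47 (SE 0.13, adjusted p = 0.0127) in wild-type cells, a call lost with normexp (adjusted p = 0.137) and without wild-type control replicate 3 or transgenic tumour replicate 3 (adjusted p = 0.0582 and 0.0649), and was at −0.15 (SE 0.17, adjusted p = 0.572) in transgenic ones. Car9, a carbonic anhydrase at the cell surface that helps to clear acid, did not pass (0.28 and 0.41).

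The remaining targets act in signalling, transcription and chromatin. Ankrd37, an ankyrin-repeat protein, stood at −1.08, −1.65 and −1.29 in wild-type control, 1.27, 1.25 and 1.27 in wild-type tumour, −2.95, −1.75 and −2.26 in transgenic control and −0.57 and −0.85 in transgenic tumour cells. It rose by 2.59 (SE 0.23, adjusted p = 4.42e-06) in wild-type and by 1.65 (SE 0.30, adjusted p = 0.00181) in transgenic cells. The wild-type tumour values lay between 1.25 and 1.27, above both transgenic tumour values, which in turn lay above all controls. Ddit4, an inhibitor of the growth kinase mTORC1, stood at 2.05, 1.43 and 2.23 in wild-type control, 3.52, 3.56 and 4.06 in wild-type tumour, 1.98, 1.56 and 0.94 in transgenic control and 2.69 and 2.69 in transgenic tumour cells. It rose by 1.81 (SE 0.25, adjusted p = 0.000118) and 1.24 (SE 0.32, adjusted p = 0.0141), and the second call is lost without transgenic control replicate 3 or transgenic tumour replicate 3 (adjusted p = 0.256 and 0.0799).

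Kdm3a, a histone demethylase, stood at 2.47, 2.33 and 2.30 in wild-type control, 2.82, 2.91 and 2.87 in wild-type tumour, 2.20, 1.81 and 2.26 in transgenic control and 2.38 and 2.25 in transgenic tumour cells. It rose by 0.52 (SE 0.11, adjusted p = 0.00332) in wild-type cells, whereas the transgenic groups overlapped (0.19 (SE 0.15, adjusted p = 0.399)). Adm encodes the vasodilator peptide adrenomedullin and stood at −2.47, −4.55 and −2.32 in wild-type control, −0.66, −1.05 and −0.60 in wild-type tumour, −2.22, −3.40 and −4.33 in transgenic control and −3.38 and −2.28 in transgenic tumour cells. Its difference of 2.20 (SE 0.55, adjusted p = 0.00741) in wild-type cells was measured against a group in which 1 of 4 arrays was above background. The gene was tested only through the group where it is high, so its place among the 22 supports nothing, and the count over the 28 members leaves it out. The call is lost without wild-type tumour replicate 3 (adjusted p = 0.0876). Ndrg1 opposed the rest and stood at 2.63, 2.64 and 2.28 in wild-type control, 0.75, 1.36 and 0.96 in wild-type tumour, 1.40, 1.79 and 2.77 in transgenic control and 0.63 and 0.21 in transgenic tumour cells. It fell by 1.45 on the log2 scale in wild-type (SE 0.29, adjusted p = 0.00183) and by 1.63 in transgenic cells (SE 0.38, adjusted p = 0.00789). The second call is lost without transgenic control replicate 3 or transgenic tumour replicate 3 (adjusted p = 0.0888 and 0.216).

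**Figure D3:**
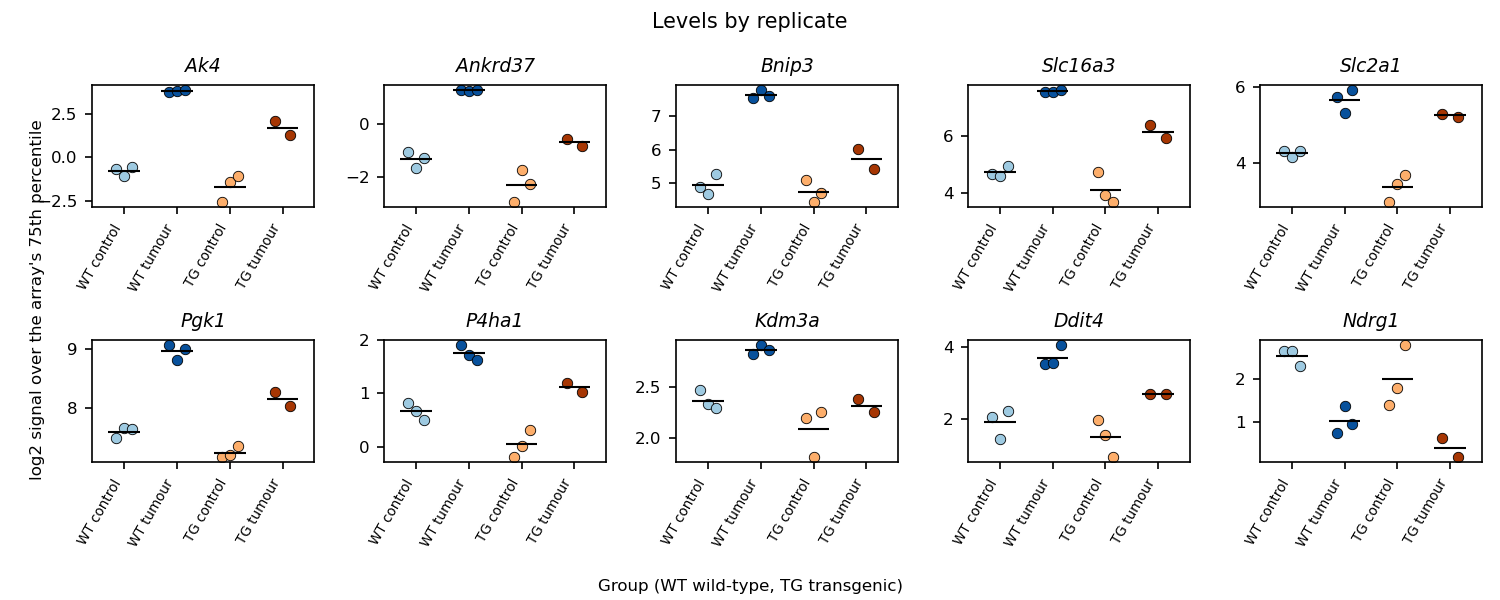
Level of 10 members in each replicate as log2 signal over the array's 75th percentile, by group; lines are group means and the vertical scales differ between panels. For Ak4, Ankrd37, Bnip3, Slc16a3 and Pgk1 the 2 transgenic tumour values lie between the controls and the wild-type tumour values.

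In transgenic macrophages as a whole, tumour material raised 16 of the 32 members and lowered 2, where 25.4% of all genes passed, 15.2% upwards and 10.2% downwards. Of the 28 above background on all arrays, 14 rose and 2 fell. Of the 15 enzymes 8 rose and 1 fell, with a median of 0.63. Of the 17 others 8 rose and 1 fell, with a median of 0.78, or 0.43 over the 13 above background on all arrays. The median over all genes was 0.06. The 15 members called higher in both genotypes were 68.2% of the 22 called in wild-type cells and 93.8% of the 16 called in transgenic ones. The same overlap over all genes was not counted, so no conclusion about the members is drawn from these shares. Adm, Aldoa, Gpi1, Higd1a, Hk1, Kdm3a and P4ha2 passed upwards in wild-type cells but not in transgenic ones, and a pass in 1 genotype alone is no test of a difference. Within slide 2, all 18 called members kept their direction. That slide holds 1 transgenic control array and gave part of the values behind the calls, so this adds no support to them. The transgenic tumour group had 2 replicates, all on that slide, and a fit to the transgenic arrays alone, in which the repeat arrays were averaged, called 0 members in either direction, with 187 genes called in all.

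The direct test of whether the genotypes responded differently called 1 of the 32 members, Bnip3, where 1.95% of all genes passed. Bnip3 responded less in transgenic cells by −1.74 (SE 0.34, adjusted p = 0.0221), and 0 members responded more. At an unadjusted p under 0.05, 9 members responded less and 3 more. The share of all genes past that unadjusted threshold was not counted, so no conclusion is drawn from these counts. Within slide 2 the difference for Bnip3 was −1.29. That call falls away without wild-type control replicate 1, wild-type tumour replicate 3, transgenic control replicate 3 or transgenic tumour replicate 3 (adjusted p = 0.0623, 0.163, 0.0537 and 0.204), and without the repeat arrays (adjusted p = 0.156), with the mean of its probes (adjusted p = 0.053) or with no filter (adjusted p = 0.0596). Ak4 differed by −1.54 (SE 0.46, adjusted p = 0.142), and the fits that leave out replicates put it between −1.88 and −0.90. The median difference was −0.02 over the enzymes and −0.40 over the 17 other targets, −0.26 over the 13 above background on all arrays, beside 0.02 over all genes.

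The transgene's effect was then read in each medium. Both effects share samples with the responses above, so their values stand side by side and are not independent. With tumour material, 7 of the 32 members were lower in transgenic cells and 1 was higher, where 4.58% of all genes passed, 2.56% downwards and 2.01% upwards. Of the 28 above background on all arrays, 5 were lower and 1 higher. The lower ones were Ak4 at −2.54 (SE 0.36, adjusted p = 0.00213), Bnip3 at −2.01 (SE 0.26, adjusted p = 0.00122), Ankrd37 at −1.92 (SE 0.30, adjusted p = 0.00339) and Slc16a3 at −1.43 (SE 0.27, adjusted p = 0.01), followed by the enzymes Pfkl at −1.09 (SE 0.25, adjusted p = 0.0298) and Pgk1 at −0.90 (SE 0.17, adjusted p = 0.00942) and by Kdm3a at −0.60 (SE 0.15, adjusted p = 0.0387). For each of these 7 genes both transgenic tumour values lay below all wild-type tumour values. The genes were called from these same values, so this describes the calls and adds no support to them. The share of all genes without overlap was not counted. The exception was Eno2, higher in transgenic cells by 1.97 (SE 0.23, adjusted p = 0.000585), with both values more than 2 above the highest wild-type one.

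**Figure D4:**
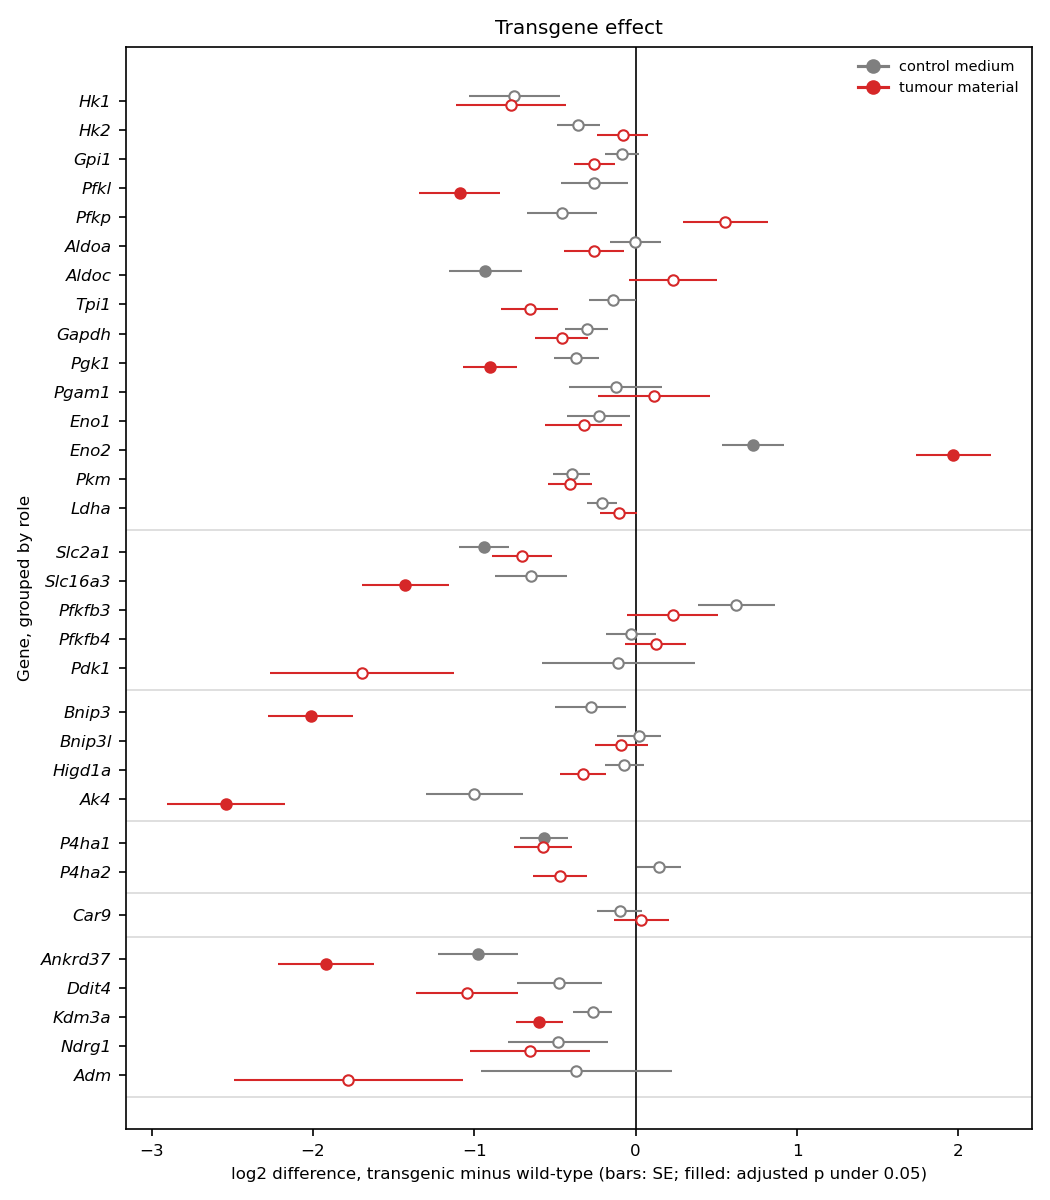
Log2 difference between transgenic and wild-type macrophages for the 32 tested members, grouped by role, in control medium (grey) and with tumour material (red); bars are standard errors and filled points have an adjusted p under 0.05. Eno2 lies right of 0 in both media (0.73 and 1.97), and Ak4, Bnip3 and Ankrd37 lie farthest left with tumour material.

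Within slide 2, the only slide that holds both groups, the differences were −2.22 for Ak4, −1.82 for Bnip3, −1.84 for Ankrd37, −1.46 for Slc16a3, −1.11 for Pfkl, −0.83 for Pgk1, −0.55 for Kdm3a and 2.07 for Eno2. Slide 2 holds 1 wild-type tumour array, so these are values without a usable test. The calls of Bnip3 and Eno2 held without each replicate in turn. Without transgenic tumour replicate 3 the adjusted p was 0.138 for Ak4, 0.169 for Ankrd37, 0.232 for Slc16a3, 0.433 for Pfkl, 0.135 for Pgk1 and 0.473 for Kdm3a. Without wild-type tumour replicate 3 it was 0.0781 for Ankrd37, 0.201 for Slc16a3, 0.336 for Pfkl, 0.14 for Pgk1 and 0.298 for Kdm3a. Pfkl is also lost without wild-type control replicate 3 or wild-type tumour replicate 1 (adjusted p = 0.0614 and 0.069), and Kdm3a without wild-type control replicate 2, wild-type tumour replicate 1 or 2 or transgenic tumour replicate 2 (adjusted p = 0.0578, 0.0849, 0.07 and 0.0511). With repeat arrays averaged, Pfkl and Kdm3a are lost (adjusted p = 0.0524 and 0.0857), and with slide column 4 as a term as well (adjusted p = 0.11 and 0.131). That column held 3 arrays, all of them transgenic, namely the second reading of tumour replicate 3 and those of control replicates 1 and 2. The spread (root mean square) of the multiplicative correction that the scanner software applied over the surface was 0.253 to 0.331 there and 0.0964 to 0.126 on the other arrays. With the 3 repeat arrays left out, 0 of the 8 members passed, at adjusted p values from 0.0506 for Ak4 to 0.505 for Pfkl, and the differences of Pfkl and Slc16a3 shrank to −0.58 and −0.70.

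The 2 classes stood apart in this comparison by their medians alone: −0.26 over the 15 enzymes, of which 2 were lower and 1 higher, and −0.65 over the 17 other targets, of which 5 were lower and 0 higher (0 also at an unadjusted p under 0.05). Over the 13 other targets above background on all arrays the median was −0.57 and over all genes −0.01. The choice of probe bore on single genes. For Ldha the brightest probe gave −0.11 and the others −0.66 and −0.93, and for Pfkfb3 the brightest gave 0.23 and the other −1.58. The 2 probes of Slc16a3 gave −1.43 and −1.49, and the 2 of Bnip3 above background on all arrays −2.02 and −1.50.

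In control medium, where no tumour material was present, 4 of the 32 members were lower in transgenic cells and 1 was higher, with 8.95% of all genes called, 5.32% downwards and 3.63% upwards. Of the 28 above background on all arrays, 3 were lower and 1 higher. Slc2a1 was lower by −0.94 (SE 0.15, adjusted p = 0.00324), with −1.04 within slide 1 and −0.69 within slide 2, and its call held without each replicate in turn. Aldoc was lower by −0.93 (SE 0.23, adjusted p = 0.0254), with −0.70 and −1.47 within the slides. Ankrd37 was lower by −0.98 (SE 0.25, adjusted p = 0.0306), with −1.07 and −0.76. P4ha1 was lower by −0.57 (SE 0.15, adjusted p = 0.0348), with −0.78 and −0.10. Eno2 was higher by 0.73 (SE 0.19, adjusted p = 0.0383), with 0.59 and 1.03. For all 5 genes the transgenic control values lay on 1 side of all wild-type control values, which were among the values that gave the calls and so add no support.

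The other 4 calls each depended on single replicates. Aldoc is lost without wild-type control replicate 1 or 3, transgenic control replicate 2 or 3 or transgenic tumour replicate 3 (adjusted p = 0.0507, 0.201, 0.0651, 0.0686 and 0.0555). Ankrd37 is lost without wild-type control replicate 1 or 3, wild-type tumour replicate 1 or 3 or transgenic tumour replicate 3 (adjusted p = 0.0808, 0.171, 0.0539, 0.0549 and 0.0982). P4ha1 is lost without any 1 of 9 of the 11 replicates, all but transgenic control replicate 3 and transgenic tumour replicate 2 (adjusted p up to 0.0921), and Eno2 without any 1 of 9, all but transgenic control replicate 1 and transgenic tumour replicate 2 (adjusted p up to 0.167). With repeat arrays averaged, Aldoc, Ankrd37, P4ha1 and Eno2 are lost (adjusted p = 0.0635, 0.0758, 0.0566 and 0.0915). A fit to the 2 control groups alone, with limma as before, called 0 of the 5, Slc2a1 included (adjusted p = 0.066). With slide column 4, which holds transgenic control replicates 1 and 2, as a term, 1 lower member passed, Slc2a1, and without its arrays Slc2a1 was at −0.71 (adjusted p = 0.072). Leaving out transgenic control replicate 1 raised the count of lower members from 4 to 10 in control medium and from 7 to 15 with tumour material. The same omission raised the calls over all genes, in either direction, from 1417 to 2719 and from 725 to 2093. The class medians were −0.26 for the enzymes and −0.28 for the other targets, beside −0.03 for all genes.

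**Figure D5:**
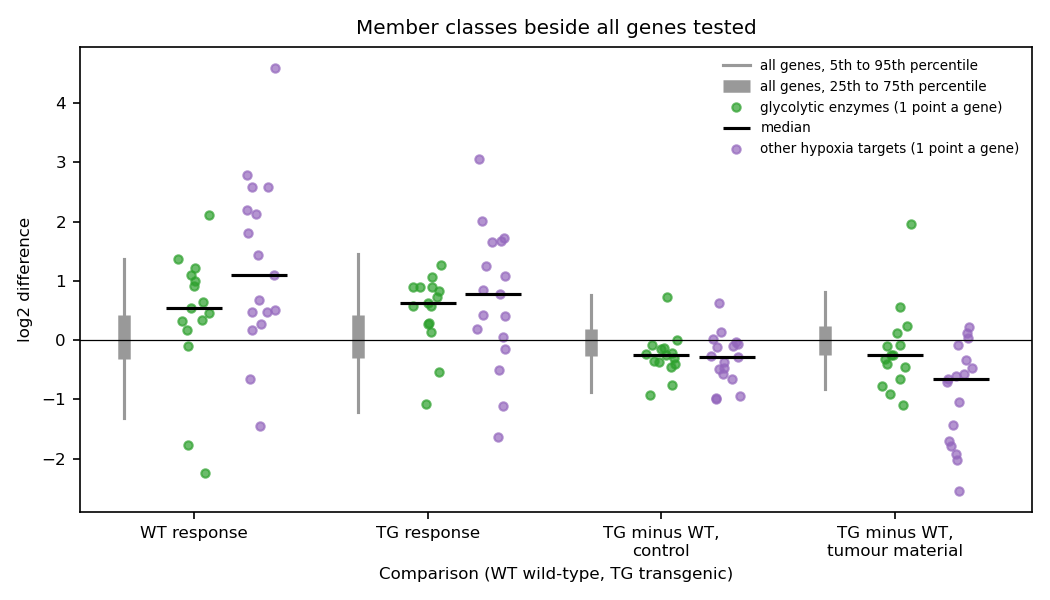
Log2 differences of the glycolytic enzymes (green, 15 genes) and the other hypoxia targets (purple, 17 genes) in 4 comparisons, with class medians as black lines; grey bars span the 5th to 95th (thin) and 25th to 75th (thick) percentile of all 15834 genes tested. Both class medians lie above the grey thick bars in the 2 responses, and the median of the other targets lies lowest, at −0.65, for transgenic minus wild-type with tumour material.

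Further hypoxia targets outside the set were read as well. Of 24 tested genes among 27 further hypoxia targets, 14 rose and 3 fell in wild-type cells (median 1.10) and 12 rose and 2 fell in transgenic ones (median 0.41). That is 58.3% and 12.5%, beside 23.2% and 16.8% of all genes, and 50% and 8.33%, beside 15.2% and 10.2%. Nos2, the inducible nitric oxide synthase of activated macrophages, rose by 7.86 and 7.50. The HIF prolyl hydroxylase gene Egln3, itself a HIF target, rose by 3.57 and 2.55, and the lipid-droplet gene Hilpda by 4.08 and 2.43. Each of these passed in both genotypes. With tumour material 9 of the 24 were lower in transgenic cells and 1 was higher (median −0.51), among them Egln3 at −2.63 (SE 0.20, adjusted p = 4.36e-05), with the repressor gene Bhlhe41 higher by 1.59 (SE 0.21, adjusted p = 0.00128). These are 37.5% and 4.17% of the list, beside 2.56% and 2.01% of all genes, whose median was −0.01. In control medium 6 were lower and 1 higher (25% and 4.17%, beside 5.32% and 3.63% of all genes), led by the matrix gene Tgfbi at −2.53 (SE 0.29, adjusted p = 0.000364), Egln3 at −1.61 (SE 0.17, adjusted p = 0.000227) and Lox, higher by 1.55 (SE 0.41, adjusted p = 0.0384).

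Cells control the alpha subunits of HIF mainly as proteins. Among the mRNAs of 6 subunit and regulator genes, Epas1, which encodes one of the alpha subunits, passed in both responses (0.61 and 0.61), and Hif1an, which encodes an inhibitor of HIF, fell by 0.56 on the log2 scale in transgenic cells (adjusted p = 0.0263). Hif1a, named here after its values were seen, was at 0.91 (SE 0.36, adjusted p = 0.0642) in wild-type and 0.50 (SE 0.48, adjusted p = 0.483) in transgenic cells. Of 13 tested glycolytic isoforms outside the set, 2 rose and 4 fell in wild-type cells (15.4% and 30.8%, beside 23.2% and 16.8% of all genes). Ldhb, the lactate dehydrogenase subunit that favours pyruvate, fell by 2.51 on the log2 scale there (adjusted p = 6.12e-05) against −0.45 in transgenic cells (adjusted p = 0.467), and the glucose transporter gene Slc2a3 fell by 1.28 and 1.22. Of 21 genes of pyruvate entry and the TCA cycle, 2 rose and 5 fell in wild-type cells, with the fumarase gene Fh1 at −0.80 and the pyruvate carrier gene Mpc1 at −0.73, and 1 rose and 2 fell in transgenic ones. The falls were 23.8% and 9.52% of the list, beside 16.8% and 10.2% of all genes, and the rises 9.52% and 4.76%, beside 23.2% and 15.2%. Of 7 genes of the pentose phosphate pathway, 0 rose by limma's test (0 also at an unadjusted p under 0.05) and 3 fell in wild-type cells, led by Tkt at −1.11. That is 0% and 42.9%, beside 23.2% and 16.8% of all genes. In transgenic cells 0 rose and 1 fell (0% and 14.3%, beside 15.2% and 10.2%).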

How the data were processed

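The deposited scanner output was read with Agilent Feature Extraction 10.7.3.1, per the submitters' processing notes. Per the file headers it holds 1 signal intensity per spot after the authors' background subtraction and spatial detrending. The deposited series matrix of log2 values served as an alternative. RNA was labelled with Cy3, per the labels' protocols.

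Outlier-marked spots (166 to 270 per array) were left out, spots of a probe averaged, and log2 signals reduced by the array's 75th percentile. Accessions were named through a RefSeq table of GRCm38.p6: 28311 of 55634 probes had 1 symbol, 0 had several and 27323 had none. A probe needed 1 group with every array above background (20208 probes), and the brightest stood for its gene: 15834 genes, 10974 with a symbol. limma 3.58.1 (R 4.3.3) modelled 4 group means plus the slide, with repeat arrays of a replicate as a random block (correlation 0.0615, 9 residual and 2.65 prior degrees of freedom), so that repeat arrays count almost as separate replicates. Benjamini-Hochberg adjusted p values under 0.05 counted as calls. With 11 replicates in 4 groups, their number limits the precision. The fit was also run on simulated arrays with known changes and independent noise. These held no slide effect and no correlation between repeat arrays, so they do not bear on those features of the data. 0 of the table columns belonged to other samples.

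The members and lists were chosen with earlier results of these data known. Values in every replicate are given for the 10 largest called wild-type responses, members called in a transgene effect or the difference or called lower, and paralog pairs that disagree; genes of other lists are named when called and among the 3 largest changes of the list. 1 gene that this rule names is not reported here. Alternatives covered background, normalization, filter, probe choice, slide, slide column, repeat arrays, pairing and each replicate. No gMeanSignal column was found, so normexp (offset 50) used the median signals.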

Additional observations from a re-analysis of the deposited data

Results flagged for a closer look

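Limma's test of the difference between the responses, with Benjamini-Hochberg adjustment, called 1 of the 32 members and 5 of the 24 further hypoxia targets tested. Over all genes 1.95% passed. The call of Bnip3 falls away without single replicates, as given above. For the other 5 genes the alternatives were not read gene by gene. Over all genes, 308 calls became 45 to 1209 when 1 replicate was left out. Bnip3, the mitophagy receptor, rose by 2.59 in wild-type and by 0.85 in transgenic cells, a difference of −1.74 (SE 0.34, adjusted p = 0.0221). Hilpda, which coats lipid droplets, rose by 4.08 and 2.43, a difference of −1.65 (SE 0.26, adjusted p = 0.00687). Fam162a, a mitochondrial protein gene, rose by 1.57 in wild-type cells and was at 0.31 in transgenic ones, a difference of −1.26 (SE 0.18, adjusted p = 0.00413). Gys1, the glycogen synthase gene, rose by 1.55 and 0.60, a difference of −0.95 (SE 0.22, adjusted p = 0.0489). Tgfbi and Bhlhe41 went the other way. Tgfbi, a matrix protein gene, rose by 0.78 in wild-type and by 3.41 in transgenic cells, a difference of 2.63 (SE 0.45, adjusted p = 0.0108). Bhlhe41, a transcriptional repressor gene, fell by 1.80 on the log2 scale in wild-type cells and was at −0.28 in transgenic ones, a difference of 1.52 (SE 0.27, adjusted p = 0.0133).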

How the results depend on the processing

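Values below are counts of members past an adjusted p of 0.05 or class medians. No value past the threshold changed sign under any alternative run. Replicates per group (3, 3, 3 and 2) limit every call, and transgenic tumour cells were read on slide 2 only.
Leaving out 1 replicate at a time, the wild-type response kept 17 to 23 higher and 4 lower members and medians of 0.48 to 0.64 (enzymes) and 0.95 to 1.20 (others). The transgenic response had 10 to 18 higher and 0 to 3 lower and medians of 0.60 to 0.73 and 0.51 to 0.92. The transgene effect in control medium had 0 to 1 higher and 1 to 10 lower (−0.34 to −0.19 and −0.39 to −0.17), and with tumour material 1 higher and 1 to 15 lower (−0.43 to −0.16 and −0.83 to −0.48). The difference had 0 to 2 higher and 0 to 5 lower (−0.12 to 0.10 and −0.54 to −0.31).
Slide 2 alone, with 1 residual degree of freedom, gave 7 higher and 2 lower in the wild-type response (others 1.39), 8 higher in the transgenic one, and 0 in both directions for the transgene effects and the difference; slide 1 alone gave 0 higher for the transgene in control medium. The other targets' median in the wild-type response was 0.66 with normexp, 0.63 with no filter, 0.68 above background on all arrays and 0.89 without the glucose and lactate genes. In the transgenic response it was 0.38, 0.42, 0.43 and 0.60 there, 0.62 with quantile normalization, 0.63 with the deposited matrix, 0.62 without a slide term and 0.50 with repeat arrays averaged. For the transgene in control medium, no filter gave 0 higher and 1 lower, slide column 4 as a term 1 lower (others −0.14), averaged repeats 0 and 1, and only the groups compared 0 and 0. With tumour material, no slide term gave 12 lower, only the groups compared 15, repeat arrays left out 0 in both directions, and column 4 as a term −0.48 for the others; without column 4 it was 2 higher and 12 lower (−0.48). For the difference, normexp gave 3 lower, and no filter, the mean of probes and repeats left out 0. No slide term gave 1 higher, and without column 4 it was 2 higher and 2 lower. The others' median there was −0.26 above background on all arrays, −0.57 with the mean of probes, −0.61 without a slide term and −0.62 with averaged repeats. Repeats left out took the transgenic response to 1 lower, and only the groups compared to 0 and 0; that fit averaged repeat arrays because their correlation could not be estimated. The promoter motif share was 49% of windows with ACGTG alone.
With the replicate number as a block, the transgene effect in control medium had 2 lower members and the difference 2 higher and 5 lower. Over all genes the block gave 8990 calls in the wild-type response (6342 without it) and 5261 in the transgenic one (4016 without it). Deviations of same-numbered replicates correlated at −0.18 to 0.20. With so few replicates per group, these correlations cannot settle whether the numbers pair samples. The main fit had no such block because no label says that equal numbers mark the same animal.
Over all genes tested, the calls moved as follows. The wild-type response had 6342, against 1191 on slide 2 and 4017 without wild-type tumour replicate 3. The transgenic response had 4016, against 2032 on slide 2, 2304 without transgenic tumour replicate 3 and 187 with only the groups compared. The transgene effect in control medium had 1417, against 916 with no filter, 0 on slide 2, 632 with column 4 as a term, 766 with averaged repeats, 234 with only the groups compared and 421 to 2719 leaving out 1 replicate; the share that was higher went from 40.5% to 54.2% with normexp. With tumour material it had 725, against 1111 with no slide term, 0 on slide 2, 447 with column 4 as a term, 1573 without column 4, 214 with repeats left out, 2026 with only the groups compared and 130 to 2093 leaving out 1 replicate. The difference had 308, against 182 with no filter, 0 on slide 2, 200 with column 4 as a term, 827 without column 4, 174 with averaged repeats, 118 with repeats left out, 1261 with the replicate block and 45 to 1209 leaving out 1 replicate. The causes of these shifts were not tested.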
